A study of Strongylocentrotus purpuratus with 8 samples.

Results

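The 72 hpf and 48 hpf embryos of the purple sea urchin, Strongylocentrotus purpuratus, make up 4 of the 8 libraries of a whole-genome bisulfite sequencing series, with 2 libraries per stage (hpf, hours post fertilisation). The libraries were chosen by the stage in their titles. The 4 other libraries, 2 from 24 hpf embryos and 2 from adult tube feet, served here to class windows, as levels from outside the comparison and in alternative fits. All groups were untreated, and the labels give neither the parents nor the number of embryos in a library. The replicates may therefore share parents or a culture, and the spread between them may be technical.

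CpG methylation is a mark on cytosines that are followed by guanine. Dnmt1 copies it onto the new strand after DNA replication, and de novo enzymes of the Dnmt3 family place it on unmarked DNA. Invertebrate genomes carry it as a mosaic, in which methylated stretches, often the bodies of active genes, alternate with unmethylated DNA. In the purple sea urchin, 48 hpf falls around late gastrulation and 72 hpf around the pluteus larva, so that the comparison spans a period of tissue formation.

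Between 94446436 and 126381599 reads at CpG sites were counted in each of the 4 libraries, with a median of 5 to 7 reads per listed site. A read was counted once at each CpG site it covered. The reads of a window, here and below, are therefore calls summed over its sites. Separate reads per window were not counted and are fewer wherever a read spans several sites. The lambda phage spike-in, which carries no methylation, read as methylated at 0.296% and 0.235% in the 72 hpf libraries and at 0.249% and 0.253% in the 48 hpf libraries. The Wilson 95% intervals of these values spanned 0.221% to 0.302% and cover counting error only. Replicate 2 of 48 hpf stood apart in how its reads were spread. In windows of 500 bp with 8 to 11 CpG sites, sorted by 24 hpf replicate 1, reads per site were 1.38 times higher in methylated windows (at least 80%) than in unmethylated ones (at most 20%) in that library. The same ratio was 1.16 and 1.04 in the 72 hpf libraries and 1.13 in 48 hpf replicate 1. Values without it are given for the overall level, the highly methylated classes, the directions of small p-values and the stage component at each scale. The stage component by level and CpG number and the correlations of neighbours were computed only with it. So were the differences of highly methylated windows by CpG number and the directions of small p-values by level. Among the libraries outside the comparison, 24 hpf replicate 2 stood further apart, with 42.2% of its reads methylated and a median of 3 reads per site, against 24.2% and a median of 5 in 24 hpf replicate 1.

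The overall level did not separate the stages. With all reads pooled, 24.5% and 26.0% of reads were methylated in the 72 hpf libraries, against 24.4% and 29.8% in the 48 hpf libraries. The 48 hpf library with the high level was replicate 2, and the groups overlapped. The 72 hpf mean was 25.3% ± 1.05, against 27.1% ± 3.81 for 48 hpf (SD, n = 2 libraries each), a difference of -1.79 points. This difference was -4.49 points without 48 hpf replicate 1 and 0.901 points without 48 hpf replicate 2, so its sign rested on 1 library. An exact permutation test of 2 libraries against 2 has 6 arrangements, so its two-sided p cannot go below 0.333, and single values such as these are given without a test.

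With equal weight for each of 2083987 sites that had at least 10 reads in all 4 libraries, the values drew together. The level was then 27.7% and 27.8% in the 72 hpf libraries, against 27.03% and 28.00% in the 48 hpf libraries. The difference was 0.234 points, and the 4 differences between single libraries ran from -0.280 to 0.747 points. At 500 bp, with equal weight per window, it was 0.259 points, with single differences from -0.144 to 0.661. On this scale, a shift of the genome-wide mean by 1 point in either direction lay outside the range of all 4 single differences.

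**Figure D1:**
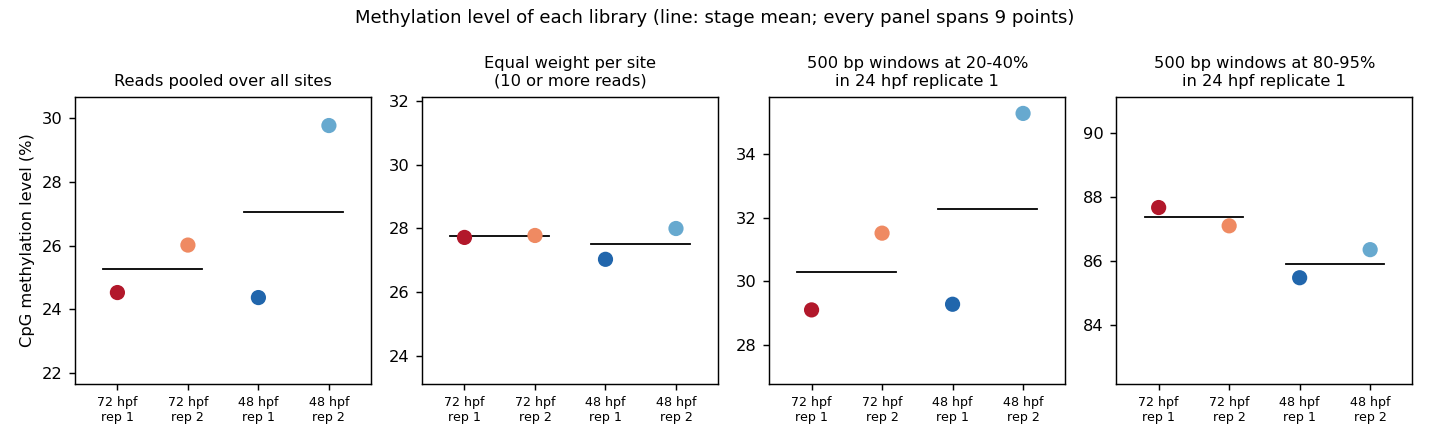
Methylation level (%) of each of the 4 libraries (points, 72 hpf left of 48 hpf) with the stage mean as a line, for all reads pooled, for sites with equal weight, and for 500 bp windows at 20% to 40% or 80% to 95% in 24 hpf replicate 1. Replicate 2 of 48 hpf reached 29.8% with pooled reads and 35.3% in the windows of low level, while in the windows at 80% to 95% both 72 hpf libraries lay above both 48 hpf libraries.

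The difference was not alike at all levels. DNA that was already highly methylated had a slightly higher level at 72 hpf, and DNA of low or intermediate level did not differ from both 48 hpf libraries in 1 direction. In 167192 windows of 500 bp with a mean of 80% or more, the level was 89.5% and 88.8% in the 72 hpf libraries, against 87.0% and 88.0% in the 48 hpf libraries. Both 72 hpf libraries were above both 48 hpf libraries, and the difference of the means was 1.64 points. It was larger than the differences between replicates of these values, and it was not tested. In 451606 windows at 20% or less, the level was 1.21% and 1.19% in the 72 hpf libraries, against 1.17% and 1.40% in the 48 hpf libraries, and the groups overlapped. In the 92356 windows between 20% and 80%, it was 57.8% and 59.1% at 72 hpf, against 57.3% and 60.7% at 48 hpf, and the groups overlapped again.

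As a difference of stage means, the higher level of highly methylated windows was of like size at every CpG density. In windows at 80% or more, the difference was 1.65 points with 4 to 7 CpG sites, 1.62 with 8 to 11, 1.65 with 12 to 19, 1.67 with 20 to 29 and 1.59 with 30 or more. With 4 to 7 sites the level was 89.0% and 88.4% at 72 hpf, against 86.7% and 87.4% at 48 hpf. With 30 or more it was 90.6% and 90.2%, against 87.8% and 89.9%. In the densest windows the gap was thus smaller to 48 hpf replicate 2 and larger to 48 hpf replicate 1. At single sites of 80% or more, 483002 in number, the level was 93.4% and 92.8% in the 72 hpf libraries, against 90.8% and 91.9% in the 48 hpf libraries, a difference of 1.79 points. In windows of 200 bp of the same class the difference was 1.73 points, and in windows of 10 kb it was 1.25 points. Sites at 80% or more made up 23.3% and 23.2% of sites in the 72 hpf libraries, against 22.2% and 23.0% in the 48 hpf libraries. The share between 20% and 80% was 9.87% and 10.5% at 72 hpf, against 11.04% and 11.3% at 48 hpf. Neither share overlapped between the stages. The share at 20% or less did overlap, with 66.9% and 66.4% at 72 hpf, against 66.8% and 65.7% at 48 hpf.

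The starting level of a window has to come from reads other than those used for the change, because a class cut from the same reads moves towards the mean on its own. The class was therefore taken from 1 of the 48 hpf libraries and the change from the other, and both choices were averaged. Windows that started at 80% or more differed by 1.54 points, higher at 72 hpf, and the single differences ran from 0.826 to 2.23, all above 0. Windows that started at 20% or less differed by -0.103 points, with single differences from -0.260 to 0.0639. For starting levels between 20% and 80% the change was -0.187 points, with single differences from -2.03 to 1.72. The widest range was at 20% to 40%, where the mean change was -2.30 points and the single differences ran from -6.38 to 1.64. At 60% to 80% the change was 0.813 points, with all single differences above 0 (0.122 to 1.59), whereas with classes from 24 hpf replicate 1 they crossed 0 (-0.146 to 1.56).

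Classes taken from 24 hpf replicate 1, a library outside the comparison, show each library on its own. In 134573 windows at 80% to 95% in that library, the level was 87.7% and 87.1% in the 72 hpf libraries, against 85.5% and 86.4% in the 48 hpf libraries. In 26282 windows above 95%, it was 91.9% and 91.2% at 72 hpf, against 89.4% and 90.3% at 48 hpf. In both classes every 72 hpf value was above every 48 hpf value. At 80% to 95% the difference was 1.03 points without 48 hpf replicate 1 and 1.91 points without 48 hpf replicate 2, as computed after seeing the data. At 60% to 80% these values were 0.00108 and 1.42 points. In 18363 windows at 20% to 40%, the level was 29.1% and 31.5% at 72 hpf, against 29.3% and 35.3% at 48 hpf. Here 48 hpf replicate 2 alone stood high, and it is also the library with the largest excess of reads on methylated windows. Whether that excess has a part in its level was not tested.

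With classes from adult replicate 1, the 83602 windows at 80% or more stood at 87.6% and 87.1% in the 72 hpf libraries, against 85.2% and 86.2% in the 48 hpf libraries, a difference of 1.62 points. It was 1.08 points without 48 hpf replicate 1 and 2.15 points without 48 hpf replicate 2. Replicate 1 of 24 hpf stood at 87.0% in these windows, close to the 72 hpf libraries and above both 48 hpf libraries. A class cut from the pooled 48 hpf reads themselves gave a change of 0.766 points at 80% or more and of -3.12 points above 95%. The sign above 95% was opposite to that found with classes from the other 48 hpf library or from 24 hpf replicate 1.

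**Figure D2:**
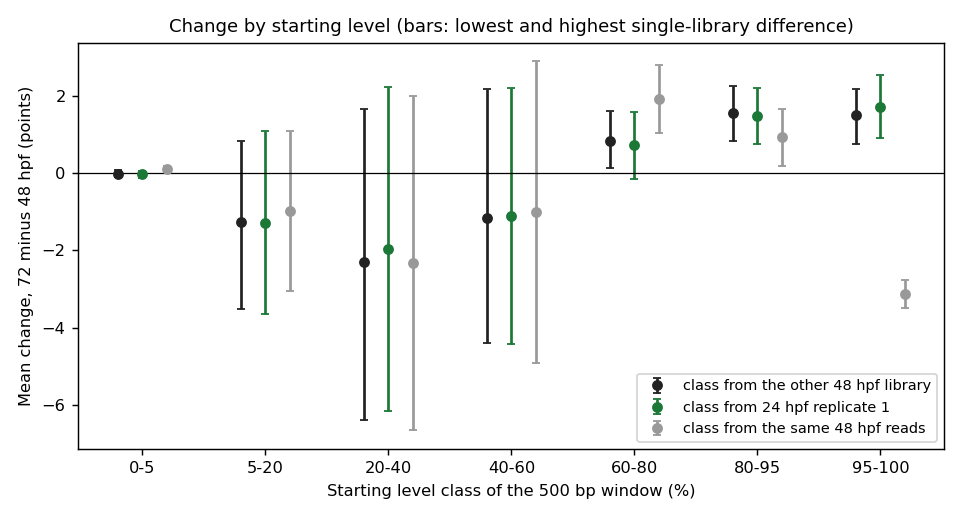
Mean change, 72 minus 48 hpf (points), of 500 bp windows by class of starting level (%), with the class taken from the other 48 hpf library, from 24 hpf replicate 1 or from the same 48 hpf reads; bars run from the lowest to the highest difference between single libraries. Above 80% the first 2 ways give a difference of 1.47 to 1.71 points with bars above 0, and between 5% and 60% the bars cross 0.

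The quasi-binomial test called no site and no window at any of the 3 scales tested. At 500 bp, reads were summed in 711154 windows that held 4 or more CpG sites and 20 or more reads in each of the 4 libraries. A quasi-binomial model with dispersion moderated by limma called 0 windows (0%) at a Benjamini-Hochberg adjusted p below 0.05 and a difference of at least 20 points. The smallest adjusted p was 0.456, and limma on log2 ratios also called 0. An unadjusted p below 0.05 was reached by 18505 windows, 2.6% of those tested and 6.03% of the 306816 that could be fitted. At 200 bp, the quasi-binomial test called 0 of 896518 windows (0%), and limma on log2 ratios called 0 as well. There, 22084 windows (2.46%) reached an unadjusted p below 0.05, of which 12440 (1.39%) were higher and 9644 (1.08%) lower at 72 hpf. The 22084 windows were 6.30% of the 350347 that could be fitted. At single sites, 0 of 2083987 (0%) were called by the quasi-binomial test and 0 by limma on log2 ratios, while Fisher's exact test on reads pooled per stage, which takes no account of replicates, called 1, lower at 72 hpf. An unadjusted p below 0.05 was seen at 28296 sites (1.36%), of which 18318 (0.879%) were higher and 9978 (0.479%) lower at 72 hpf. The 28296 sites were 3.55% of the 796348 that could be fitted.

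The direction of the windows with a small unadjusted p turned with the 48 hpf library used. At 500 bp, 9973 (1.4% of those tested) were higher and 8532 (1.2%) lower at 72 hpf. Without 48 hpf replicate 1 the counts were 5289 higher and 10768 lower, and without 48 hpf replicate 2 they were 10177 higher and 5434 lower. At 200 bp they were 5387 higher and 10366 lower without 48 hpf replicate 1, and 10716 higher and 5326 lower without 48 hpf replicate 2. At single sites, where leaving out a library leaves few small p-values, they were 3 higher and 30 lower without 48 hpf replicate 1, and 14 higher and 3 lower without 48 hpf replicate 2. By level at 500 bp, windows at 80% or more had 5175 higher and 1056 lower at 72 hpf, together 3.74% of those fitted and less than the 6.03% over all fitted windows. Between 20% and 80%, 2717 were higher and 3849 lower (7.11% of those fitted), and at 20% or less 2081 were higher and 3627 lower (11.98%). These counts by level come from all 4 libraries and were not computed with a 48 hpf library left out.

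The share of windows with a small p depended on the number of CpG sites. Among fitted windows of 500 bp, 3.70% of those with 4 to 7 sites had an unadjusted p below 0.05, and this share increased to 15.9% in those with 30 or more. The spread between replicates grew along with it, the median dispersion being 1.40 in windows of 4 to 7 sites and 4.07 in windows of 30 or more, where 1 would be the spread of independent reads. A read adds a count at every site it spans, so dense windows can hold fewer separate reads per count. What part this has in the spread was not tested. When the dispersion was moderated along the number of CpG sites in place of coverage, as was tried only once the data had been looked at, the share was 5.84% at 4 to 7 sites and 4.57% at 30 or more. Windows of 200 bp behaved alike, with 3.99% at 2 to 3 sites and 15.6% at 15 or more under the coverage trend, and 5.76% and 6.45% under the trend on CpG number. The steep increase with CpG number was thus not seen when the dispersion followed CpG number.

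**Figure D3:**
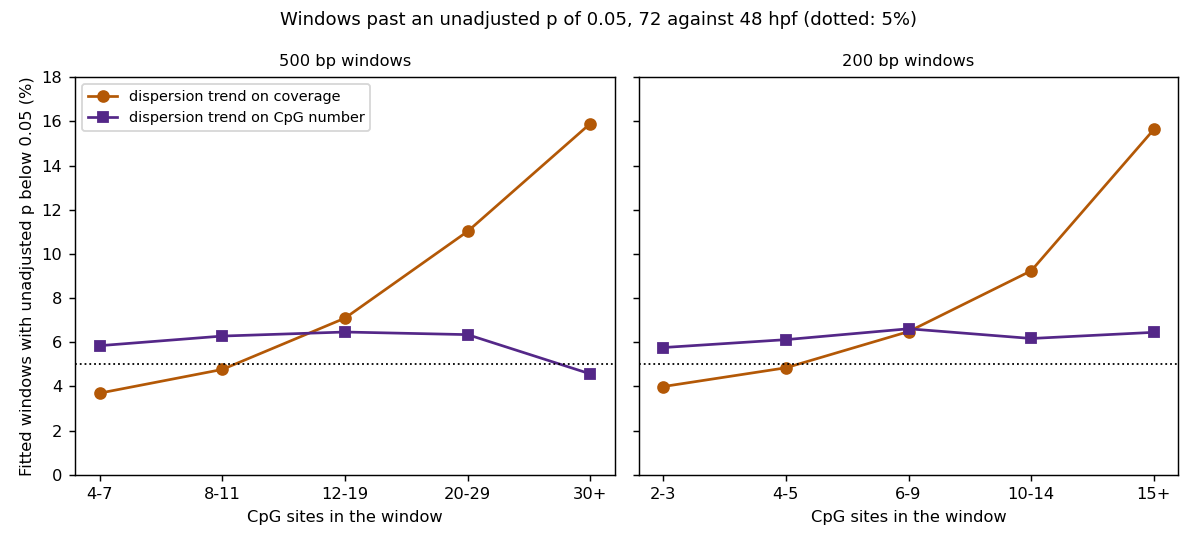
Share of fitted windows (%) with an unadjusted p below 0.05 in the comparison of 72 with 48 hpf, by number of CpG sites, for windows of 500 bp (left) and 200 bp (right), with the dispersion moderated along coverage or along CpG number; the dotted line marks 5%. Along coverage the share reaches 15.9% and 15.6% in the densest windows, and along CpG number it is 4.57% and 6.45% there.

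How large a change each window leaves possible was read from the 95% interval of its difference. The interval widens with fewer reads, with levels near the middle of the scale and, in fitted windows, with larger replicate spread. At 500 bp 306816 of the 711154 windows tested were fitted, at 200 bp 350347 of 896518, and at single sites 796348 of 2083987. The others, near either end of the scale, took their dispersion from the trend on coverage. Their own replicate spread was not used, and the shares below include them. A change of 20 points or more in either direction was excluded in 87.8% of the 500 bp windows tested, a change of 30 points in 97.1% and a change of 10 points in 62.9%. The median window excluded changes beyond 6.61 points, and 90% of windows excluded changes beyond 21.4 points or less. At 200 bp, 87.6% of windows excluded 20 points. At single sites 76.5% did, and 30.1% excluded 10 points. The intervals are not adjusted for the number of windows. They cover tested windows only, which are 56.4% of 500 bp windows with at least 4 CpG sites, 32.8% of 200 bp windows with at least 2 sites and 13.9% of all CpG sites covered in the series.

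What could be excluded varied with the level of a window. Among 500 bp windows, 20 points were excluded in 98.2% of those at 20% or less, in 86.4% of those at 80% or more, and in 39.2% of those between 20% and 80%. The median farther bound of the interval, the larger change in either direction that it still allows, was 4.34, 13.6 and 21.9 points in these 3 classes. Within the windows at 80% or more it was 15.6 points with 4 to 7 CpG sites and 9.89 points with 30 or more. Among windows between 20% and 80% it was between 21.0 and 24.3 points at every CpG number. A change of 30 points was excluded in 81.5% of these partly methylated windows. With more reads the bounds narrowed: 74.8% of windows with 20 to 39 reads in their shallowest library excluded 20 points, and 97.48% of those with 160 or more did. With the dispersion moderated along CpG number, the share that excluded 20 points was 75.2% in place of 85.9% in windows of 30 or more sites, and 77.8% in place of 73.2% in windows of 4 to 7 sites.

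**Figure D4:**
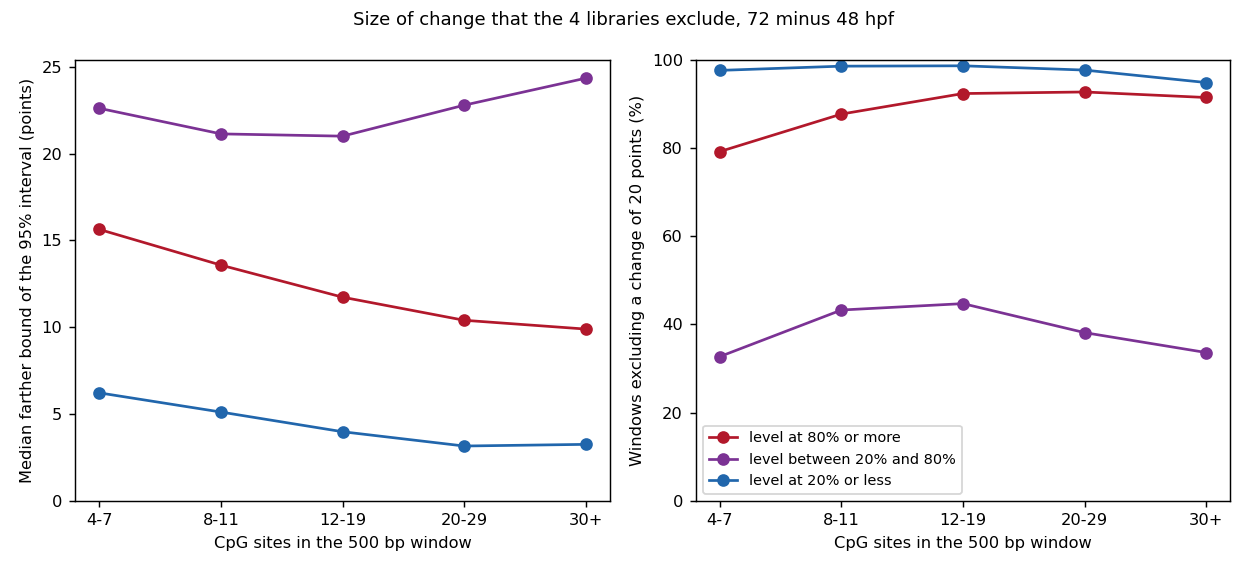
Left, median farther bound of the 95% interval of the change (points), and right, share of 500 bp windows (%) that exclude a change of 20 points, by number of CpG sites, for windows at 80% or more, between 20% and 80% and at 20% or less. Windows of intermediate level keep a median bound of 21.0 to 24.3 points, against 3.15 to 6.22 points in windows at 20% or less.

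Over the genome as a whole, libraries of different stages differed about as much as replicates did. Libraries of the same stage differed by a root mean square of 6.54 points per 500 bp window at 72 hpf and 6.58 points at 48 hpf. Across stages, 72 hpf replicate 1 differed by 6.41 points from 48 hpf replicate 1 and by 7.13 points from 48 hpf replicate 2, and 72 hpf replicate 2 differed from them by 6.25 and 6.71 points. Both pairs with 48 hpf replicate 1 were closer than replicates of a stage. That library was also the deepest, with a median of 107 reads per window, against 76 and 90 in the 72 hpf libraries and 79 in 48 hpf replicate 2. The part of depth in this was not tested. A difference of 20 points or more was seen in 2.22% of windows between the 72 hpf replicates and in 2.31% between the 48 hpf replicates. Across stages it was seen in 2.07% and 1.95% for the pairs with 48 hpf replicate 1 and in 2.84% and 2.42% for the pairs with 48 hpf replicate 2.

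The part of the change that goes beyond the replicate spread was estimated by subtracting the replicate part from the mean squared change. At 500 bp the change had a root mean square of 4.74 points, of which replicates alone gave 4.64. The remainder corresponds to a stage component of 1.01 points, or 4.49% of the variance of the change. It was 1.07 points at 200 bp and 1.06 points at single sites. In windows of 10 kb the replicate part, 2.99 points, was larger than the change itself, 2.88 points. Over all levels together, no component was thus left there with pooled reads from all 4 libraries, while 2.25 points were left without 48 hpf replicate 1. With equal weight per site, likewise tried after seeing the data, it was 0.624 points at 10 kb. The component is not a tested value. With a library left out, the replicate part came from the other stage alone. Any deviation of the single library beyond that spread then counts as component. At 500 bp it was 2.28 points without 48 hpf replicate 1, 0 without 48 hpf replicate 2, 0 without 72 hpf replicate 1 and 1.65 points without 72 hpf replicate 2. Without 48 hpf replicate 1 it was 2.42 points at 200 bp and 2.78 points at single sites, and without 48 hpf replicate 2 it was 0 at 200 bp, at single sites and at 10 kb.

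By level, the stage component was 1.93 points in 500 bp windows at 80% or more, which is 13.8% of the variance there. It was 0.275 points between 20% and 80%, 0.0763% of the variance, and 0.447 points at 20% or less. In windows of 10 kb at 80% or more, the component was 1.12 points, or 22.3% of the variance there. None was left in the lower classes at 10 kb. By CpG number at 500 bp the component decreased. It was 1.68 points with 4 to 7 sites, 1.26 with 8 to 11 and 0.827 with 12 to 19. Nothing was left at 20 sites or more. Windows at 80% or more were 56303 of 125716 with 4 to 7 sites, but 1895 of 22373 with 30 or more. The decrease was thus not separated from level. The 500 bp component at 80% or more includes the shift of the class mean of 1.64 points.

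The change correlated only weakly beyond adjacent windows. Across pairs of adjacent 200 bp windows, 477837 in number, the changes of neighbours correlated with an r of 0.211. Differences between replicates correlated as much, with an r of 0.192 at 72 hpf and 0.219 at 48 hpf. Neighbouring windows share reads, and no p-value is given. At a distance of 400 bp, r was 0.0613 for the change, 0.0219 for the 72 hpf replicates and 0.0702 for the 48 hpf replicates. At 2000 bp these values were 0.0426, 0.00962 and 0.0306, and at 10000 bp they were 0.0180, 0.00585 and 0.0160. At each distance from 1000 bp to 10000 bp, the r of the change was above that of both replicate differences.

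The windows with the smallest unadjusted p in each direction show what the candidates look like. They were drawn from windows with at least 8 CpG sites, at least 50 calls per library and stages that do not overlap, 3 for each direction, and none of the 6 was called. The calls of a dense window can come from few separate reads. Their p-values were selected as the smallest, so their differences are a description. All 6 hold at least 26 CpG sites, and the intervals given for them use the dispersion trend on coverage. With the trend on CpG number, tried after seeing the data, their quasi-binomial p was 0.000597 to 0.00414, in place of 3.32e-06 to 5.35e-05. Positions are those of the authors' build, Spur3.1, and what is annotated there was not analysed here.

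Among windows higher at 72 hpf, the smallest p was at positions 17001 to 17500 of Scaffold781, with 37 CpG sites. Its level was 20.6% and 28.8% in the 72 hpf libraries, and 0 of 212 and 0 of 329 calls were methylated in the 48 hpf libraries. The difference was 22.7 points (95% interval 13.5 to 32.2), and the quasi-binomial test gave an adjusted p of 1. All 18 sites with at least 5 reads per stage were higher at 72 hpf, and none could be lower, since no 48 hpf call was methylated. Neighbouring sites share reads, here and in the other named windows, so counts of sites are no separate evidence. In the next window of this direction, at positions 915001 to 915500 of Scaffold18 with 26 sites, the level was 100% and 98.4% at 72 hpf, against 60.9% and 60.3% at 48 hpf. The window after it stood at 57.3% and 65.1% at 72 hpf, against 53.1% and 80.8% at 48 hpf, and the groups overlapped there. In the adult libraries the named window of Scaffold18 was at 0% of 103 calls and at 16.7%. The last of the 3 was at positions 3001 to 3500 of Scaffold5458 with 26 sites, at 26.2% and 35.2% in the 72 hpf libraries, against 0 of 101 and 0 of 64 calls in the 48 hpf libraries.

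The largest difference of the 6, lower at 72 hpf, was at positions 108501 to 109000 of Scaffold1609, with 43 CpG sites. Its level was 1.89% and 0% in the 72 hpf libraries, from 53 and 65 calls, against 59.2% and 60.9% in the 48 hpf libraries. The difference was -59.5 points (95% interval -66.9 to -49.4), and the quasi-binomial test gave an adjusted p of 0.796. It had at least 5 reads per stage at only 2 of its sites, both lower at 72 hpf. At positions 235501 to 236000 of Scaffold474, also with 43 sites, the level was 22.2% and 12.5% at 72 hpf, against 73.8% and 73.3% at 48 hpf. All 25 of its sites with at least 5 reads per stage were lower at 72 hpf, but these sites share reads and the window was picked for its difference. The adjacent window before it was at 16.7% of 6 calls in 72 hpf replicate 1 and at 0% in the 3 other libraries. At positions 32501 to 33000 of Scaffold2217, with 42 sites, 0 of 122 and 0 of 84 calls were methylated at 72 hpf, against 42.5% and 30.1% at 48 hpf. Only 7 of its sites had at least 5 reads per stage, and 1 of them was lower at 72 hpf. When only sites with a read in each of the 4 libraries were summed, also tried after seeing the data, the difference at Scaffold2217 was -0.943 points, while it was between 22.7 and 61.1 points in size and of the same sign in the 5 other windows.

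**Figure D5:**
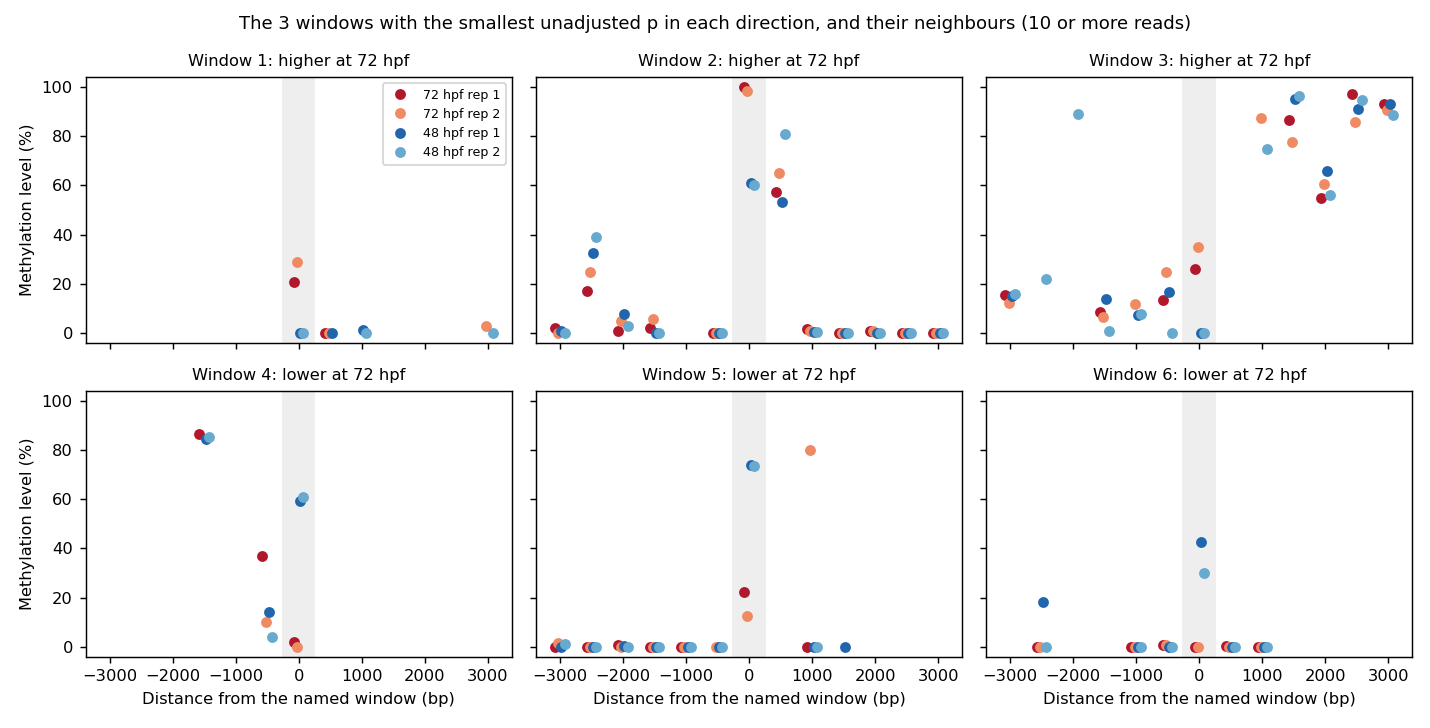
Methylation level (%) of the 4 libraries in the 6 named windows (grey band) and their neighbours up to 3000 bp away, in the order Scaffold781, Scaffold18, Scaffold5458, Scaffold1609, Scaffold474 and Scaffold2217; points with fewer than 10 reads are left out. In each named window the 2 stages are apart, and neighbours with 10 or more reads in all 4 libraries mostly show no such gap. Around Scaffold781 no neighbour has that many in all 4, and around Scaffold1609 only the window just before it does. A gap in the neighbours could hardly be judged at these windows.

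Replicates of the other groups differed in some of these windows as well. At Scaffold474 the 24 hpf replicates stood at 18.4% and 75.9%, and the adult replicates at 60.2% and 8%. At Scaffold2217 the 24 hpf replicates stood at 18.5% and 75.0%, while the adult replicates were close, at 45.3% and 45.6%. At these 2 windows the 24 hpf replicates were further apart than the stages, and the higher value was that of 24 hpf replicate 2, the library that stands apart. In the 4 other windows the replicates of either group were closer than the stages. At Scaffold1609 the adult replicates stood at 76.4% and 26.6%, at Scaffold781 at 6.36% and 22.2%, and at Scaffold18 the 24 hpf replicates stood at 70% and 91.3%.

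Replicate differences were also counted in a larger set. In 914 windows (0.129% of those tested), every 72 hpf library was at least 20 points above or below every 48 hpf library, with 355 higher and 559 lower at 72 hpf. At this gap 763 of them lay between 20% and 80%, and 37.4% had 20 or more CpG sites, against 15.7% of all windows tested. Of the 497 such windows of intermediate level with at least 20 reads in both adult libraries, 21.9% differed by 20 points or more between the adult replicates, against 8.71% of all windows of intermediate level. Between the 24 hpf replicates, 50.8% of 374 differed that much, against 29.2%. Restricted to 20 or more CpG sites, the adult shares were 33.5% and 14.5%, and the 24 hpf shares were 59.2% and 50.1%. The 24 hpf shares rest on 24 hpf replicate 2, the library that stands apart, and what part it has in them was not tested.

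Single sites gave weaker candidates. The 2 sites higher at 72 hpf with the smallest p, among those with at least 20 reads per library, lie side by side at 640709 and 640714 of Scaffold145 and share reads. The first was at 80.8% and 88.2% in the 72 hpf libraries, against 52.5% and 45.8% in the 48 hpf libraries, a difference of 35.8 points (95% interval 19.7 to 49.7), and the quasi-binomial test gave an adjusted p of 1. The 24 hpf replicates stood at 48.9% and 82.1% there and the adult libraries at 55.6% and 52.5%. Among sites lower at 72 hpf, the one at 571688 of Scaffold97 stood at 21.7% and 34.8% at 72 hpf, against 76.2% and 72.4% at 48 hpf, and the one at 222220 of Scaffold331 at 0% in both 72 hpf libraries, against 15% and 22.2% at 48 hpf. None of the 4 passed the test.

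Windows at the other end show how closely the data can bound a change. Among windows at 80% or more, the narrowest interval was at positions 613001 to 613500 of Scaffold154, with 19 sites and 254 to 492 calls per library. Its level was 97.8% ± 0.376 at 72 hpf, against 97.2% ± 0.258 at 48 hpf (SD, n = 2 each), and changes beyond 3.87 points were excluded. Between 20% and 80%, it was at positions 86501 to 87000 of Scaffold272, at 20.9% and 19.6% at 72 hpf, against 20.2% and 19.5% at 48 hpf, with an interval of -7.92 to 8.23 points. That window lies at the edge of its class and had 340 to 501 calls per library over 5 sites, so it is not typical of partly methylated windows, whose median bound was 21.9 points. At 20% or less, positions 80501 to 81000 of Scaffold1434 had 0 methylated calls in all 4 libraries, from 410 to 678 calls each, and an interval of -1.63 to 1.62 points. Its spread came from fitted windows of like coverage, since a window without methylated calls is not fitted.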

How the data were processed

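Per the file headers, the authors deposited CpG calls from MethylDackel, merged per CpG, on merged, sorted and deduplicated reads in Spur3.1 linear scaffolds with lambda phage. Trimmomatic and Picard are named in the submitters' processing notes. No aligner or tool version is given in the sources used here. The deposited files give counts of methylated and unmethylated reads, not normalized, and a percent that is the ratio of these counts cut to a whole number. Only the counts were used. Lambda was left out.

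Calls, 1 for each read at each CpG site, were summed per site, 200 bp, 500 bp and 10 kb window with Python 3.11.15 and numpy 2.4.6. The number of CpG sites in a window is that of sites read in any of the 8 libraries. Minimums in each of the 4 libraries were 10 reads per site, 20 reads and 2 sites at 200 bp, 20 reads and 4 sites at 500 bp, and 200 reads and 20 sites at 10 kb. The quasi-binomial logistic model had 1 mean per stage, fitted to the 4 libraries. Its Pearson dispersion was moderated with limma 3.58.1 (R 4.3.3, squeezeVar, trend on log coverage, lower bound 1), followed by a quasi-likelihood F test and Benjamini-Hochberg adjustment. A p of 1 was assigned where the mean level was below 2.5% or above 97.5%, and the dispersion there was read from the trend. Intervals are Agresti-Caffo intervals with reads divided by the dispersion and the moderated t quantile. The code was tested on simulated data. Level classes without further mention are by the mean of the 4 libraries. Named windows follow the rule given with them. For sites, 2 per direction with at least 20 reads were taken, and the 3 windows of narrowest interval leave out the 1% of highest coverage. The comparison, rules and tests were chosen with earlier results of these data known. Reads carry no molecular identifiers, so intervals rest on calls scaled by the dispersion. Alternatives were other read minimums, tests, libraries in the fit, dispersion settings, coverage limits, weights and class sources, and leaving out each library.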

Additional observations from a re-analysis of the deposited data

How the results depend on the processing

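The count of called 500 bp windows was 0 under all 17 alternatives run. At 200 bp, limma on log2 ratios with the replicate number as a block called 1 window, lower at 72 hpf, and at single sites this block called 11 (3 higher, 8 lower) and Fisher's exact test on pooled reads called 1, also lower. All other alternatives run at these scales called 0. The called window lies at 138201 to 138400 of Scaffold1498, at 1.43% and 0% in the 72 hpf libraries, against 90% and 94.1% in the 48 hpf libraries. Fisher's site lies at 277101 of Scaffold691, at 57.1% and 40% at 72 hpf, against 100% in both 48 hpf libraries. Both were named after their values were seen. The replicate numbers do not pair the samples by the labels, and the differences between replicates of the 2 stages correlated at an r of 0.0428 over 500 bp windows. The share of windows that exclude 20 points was 54.8% at 200 bp with no minimum of CpG sites and at least 1 read, a setting that admits windows of few reads. At single sites it was 0.466% to 1.62% when a library was left out, which leaves 1 residual degree of freedom. Leaving out a library gave 75.9% to 79.9% at 500 bp and 74.3% to 78.1% at 200 bp. The change at a starting level of 80% or more was 0.766 points with classes from pooled 48 hpf reads, which share their error with the change, and 1.28 to 1.81 points without a 72 hpf library. With classes from the other 48 hpf library it could not be computed without a 48 hpf library, since both are needed. The pooled level within replicate numbers (replicate block) gave -1.79 points, which equals the value without the block by arithmetic. The 10 kb windows were tried with at least 100 and 400 reads. Depth limited 500 bp windows, of which 74.8% excluded 20 points at 20 to 39 reads in the shallowest library.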
